A study of Mus musculus with 12 samples.

Results

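The Ifit genes (interferon-induced proteins with tetratricopeptide repeats) of the mouse are described here: Ifit1, Ifit2, Ifit3, Ifit3b, Ifit1bl1 and Ifit1bl2, 6 of the 55401 genes in the deposited count table, of which 29550.0 had any count. Membership follows the gene name, the family having been picked with earlier results of these data known, and all 6 passed the filter on low counts. The labels describe B16F10 cells, a transplantable mouse melanoma line, that carried a control guide (sgNC, group control) or a guide against Rnf19a (group sgRnf19a), the gene of a RING-type ubiquitin ligase. Cells were untreated or were treated for 24 h with what the labels call IR without spelling it out (groups control_IR and sgRnf19a_IR), with 3 libraries in each of the 4 groups. The sgRnf19a cells are labelled as Rnf19a-deficient, with no word on whether they are a pool or a clone, or on whether the libraries of a group are separate cultures. The p-values therefore reflect the spread between these libraries, which may be technical. The deposited columns used for both IR groups are marked D rather than IR, and were assigned by elimination, so every value given for IR rests on that reading.

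IFIT proteins are among the most strongly interferon-induced proteins of a cell. They are built from helical repeats that form an RNA-binding groove, and they bind RNA that looks foreign, such as RNA ending in a triphosphate or carrying a cap without the ribose methylation of self mRNA, and keep it from being translated. Their genes are switched on when type I interferon binds its receptor and the kinases Jak1 and Tyk2 signal to the factor ISGF3, of which Stat2 and Irf9 are parts and which binds a promoter element called ISRE. Ifit promoters can also respond to Irf3 directly, without interferon.

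All 6 genes lie in a cluster of 99.3 kb on mm10 chromosome 19, from 34550694 to 34650009. In order along the chromosome these are Ifit2 (34550694 to 34576419, plus strand), Ifit3 (34583531 to 34588731, plus), Ifit1bl1 (34592891 to 34601956, minus), Ifit3b (34607970 to 34613401, plus), Ifit1bl2 (34617049 to 34640743, minus) and Ifit1 (34640871 to 34650009, plus). None of the 6 overlaps another annotated gene.

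The promoters are shown because most of these genes rose together in the comparisons that follow. RefSeq promoters (GRCm38.p6) matched all 6 members, with 9 windows between them. Each window was searched over the 250 bases before the start for the core of the ISRE, GAAANNGAAA or its reverse complement TTTCNNTTTC; the last 200 bases are printed, read in the direction of transcription, with the core in capitals.
Ifit1, chr19:34640689-34640888, plus strand: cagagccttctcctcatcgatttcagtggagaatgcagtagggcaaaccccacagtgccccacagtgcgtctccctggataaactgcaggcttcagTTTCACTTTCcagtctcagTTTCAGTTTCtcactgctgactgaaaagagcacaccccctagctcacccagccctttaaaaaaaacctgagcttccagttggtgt
Ifit1bl2, chr19:34640744-34640943, minus strand: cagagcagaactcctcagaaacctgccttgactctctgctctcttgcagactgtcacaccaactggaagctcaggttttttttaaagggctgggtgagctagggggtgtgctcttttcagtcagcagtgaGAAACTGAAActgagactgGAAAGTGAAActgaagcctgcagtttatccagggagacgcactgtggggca
Ifit3, chr19:34583329-34583528, plus strand: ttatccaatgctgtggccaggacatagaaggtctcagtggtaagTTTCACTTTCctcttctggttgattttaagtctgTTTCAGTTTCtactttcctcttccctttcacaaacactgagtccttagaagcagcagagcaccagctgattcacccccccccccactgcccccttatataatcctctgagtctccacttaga
Ifit3b, chr19:34607757-34607956, plus strand: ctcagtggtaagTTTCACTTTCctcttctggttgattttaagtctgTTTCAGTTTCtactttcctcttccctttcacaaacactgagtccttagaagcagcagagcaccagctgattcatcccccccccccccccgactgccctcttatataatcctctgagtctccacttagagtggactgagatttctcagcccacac
Ifit1bl1, chr19:34601969-34602168, minus strand: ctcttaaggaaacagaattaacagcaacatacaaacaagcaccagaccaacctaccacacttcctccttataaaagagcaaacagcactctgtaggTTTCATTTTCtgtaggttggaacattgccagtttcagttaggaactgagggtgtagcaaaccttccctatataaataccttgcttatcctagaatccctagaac
Ifit2, chr19:34550494-34550693, plus strand: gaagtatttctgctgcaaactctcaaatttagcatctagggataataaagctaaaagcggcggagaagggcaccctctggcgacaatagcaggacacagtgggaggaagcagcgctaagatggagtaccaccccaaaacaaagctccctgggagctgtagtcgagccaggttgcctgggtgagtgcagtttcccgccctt

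The core was found in 6 of the 9 member windows, against 978 of all 32851 windows of that length in the table (2.98%). Counted by gene, it was in any window of 5 of the 6 members, against 936 of 27025 genes (3.46%). The windows of Ifit1, Ifit3, Ifit3b and 1 start of Ifit1bl2 held 2 matches each, which 0.180% of all windows did. In Ifit1 the matches lay at -104 to -95 and -85 to -76 from the start, in Ifit3 at -156 to -147 and -122 to -113, and in Ifit3b at -188 to -179 and -154 to -145. The Ifit1bl1 window shown held 1 match, at -104 to -95, and its other start held 1 at -23 to -14. Ifit1 and Ifit1bl2 are transcribed away from each other from starts with 145 bases between them, and the matches of Ifit1bl2, at -70 to -61 and -51 to -42, are the same DNA as those of Ifit1, read from the other strand. The letters around the matches are the same in Ifit3 and Ifit3b, and the same in both Ifit1bl1 windows. The member windows with the core are therefore not independent of each other, and their share is description only. Neither of the 2 Ifit2 windows held the core, which says nothing of sites outside those windows. Among 56 other interferon-stimulated genes with a promoter in the table, 18 (32.1%) held the core.

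Close members share reads. The libraries were read as pairs of 37 bp, and 57.8% of the 37-base words in the annotated transcripts of Ifit3 also occur in Ifit3b, as do 50.5% of those of Ifit3b in Ifit3. Ifit1 shares 8.70% of its words with other members, Ifit1bl1 13.9% and Ifit1bl2 12.8%, while Ifit2 shares none. The split between Ifit3 and Ifit3b is therefore uncertain. With the counts of Ifit3 and Ifit3b summed, and those of Ifit1, Ifit1bl1 and Ifit1bl2 summed, each sum kept the call of Ifit3 and of Ifit1 in all 5 comparisons.

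Depth was 62.7 to 71.3 M counts per untreated library (n = 6), and 34.3 to 45.6 M per IR-treated library (n = 6). Ribosomal RNA made up 0.223 to 0.696% of the untreated libraries but 11.3 to 22.1% of those with IR. Long transcripts (over 6 kb) compared with short ones (under 1 kb) stood, as a log2 difference, at 1.12 to 2.13 in untreated libraries, -1.55 to -1.31 in control_IR and -1.12 to 0.54 in sgRnf19a_IR, so values adjusted per library for length and GC content of the transcripts are given beside the main ones. Of 10 melanocyte markers, 5 had no count in any library and the list summed to 10.1 to 14.0 CPM (counts per library size, scaled by TMM) in control, so 5 markers of the labelled cell type were not detected. The sums were 16.6 to 17.2 CPM in sgRnf19a, 2.35 to 4.05 in control_IR and 4.14 to 11.3 in sgRnf19a_IR. In control Mitf alone averaged 11.4 CPM, while Trpm1, Pmel, Sox10 and Dct averaged 0.43 CPM or less. Epithelial markers, 7 genes with none at 0 throughout, summed to 658 to 830 CPM in control and 559 to 572 in sgRnf19a. With IR they summed to 1043 to 1216 CPM in control_IR and 394 to 684 in sgRnf19a_IR. Of the 4 tested, 2 were lower with the guide among IR-treated cells. These sums were mainly keratins: control means were 351 CPM for Krt8, 254 for Krt18 and 145 for Krt19. Epcam averaged 0.83 CPM in control and Cdh1 0.06, and Cldn4 and Cldn7 had no count there. Fibroblast and endothelial markers, 8 genes with none at 0 throughout, summed to 62.9 to 90.2 CPM in control, 36.0 to 99.2 in sgRnf19a, 65.5 to 75.1 in control_IR and 55.1 to 149 in sgRnf19a_IR. Of the 7 tested, 1 was higher with the guide among IR-treated cells (median log2 fold change 1.41). None was called for the difference between IR responses (median 1.81). In control Col1a1 alone averaged 54.3 CPM, Col1a2 9.18 and Pdgfra 5.33. Dcn, Lum and the endothelial Pecam1, Cdh5 and Kdr averaged 1.90 CPM or less there. Immune cell markers summed to 18.7 to 38.6 CPM in control and 29.8 to 50.5 in sgRnf19a, and with IR 1.48 to 15.2 in control_IR and 11.6 to 37.8 in sgRnf19a_IR, with 2 of 10 at 0 in all libraries; the part of any of these cell types in the results was not tested. The targeted gene, Rnf19a, was at 33.5, 29.4 and 21.5 CPM in control and 27.5, 25.6 and 22.6 CPM in sgRnf19a (log2 fold change -0.16, edgeR adjusted p = 0.881). After IR its level was 4.37, 8.06 and 5.39 CPM in control_IR but 18.1, 11.6 and 37.7 CPM in sgRnf19a_IR, so the libraries labelled as deficient were higher, without overlap (1.92 ± 0.38 SE, edgeR adjusted p = 0.00352, and 1.09 after the correction for length and GC content, also called). An edit can leave the transcript in place, so these levels do not show the loss of function that the label states, and sgRnf19a and sgRnf19a_IR stand throughout for the libraries so labelled. In bulk RNA, fewer cells that express a gene and less RNA per cell cannot be told apart.

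**Figure D1:**
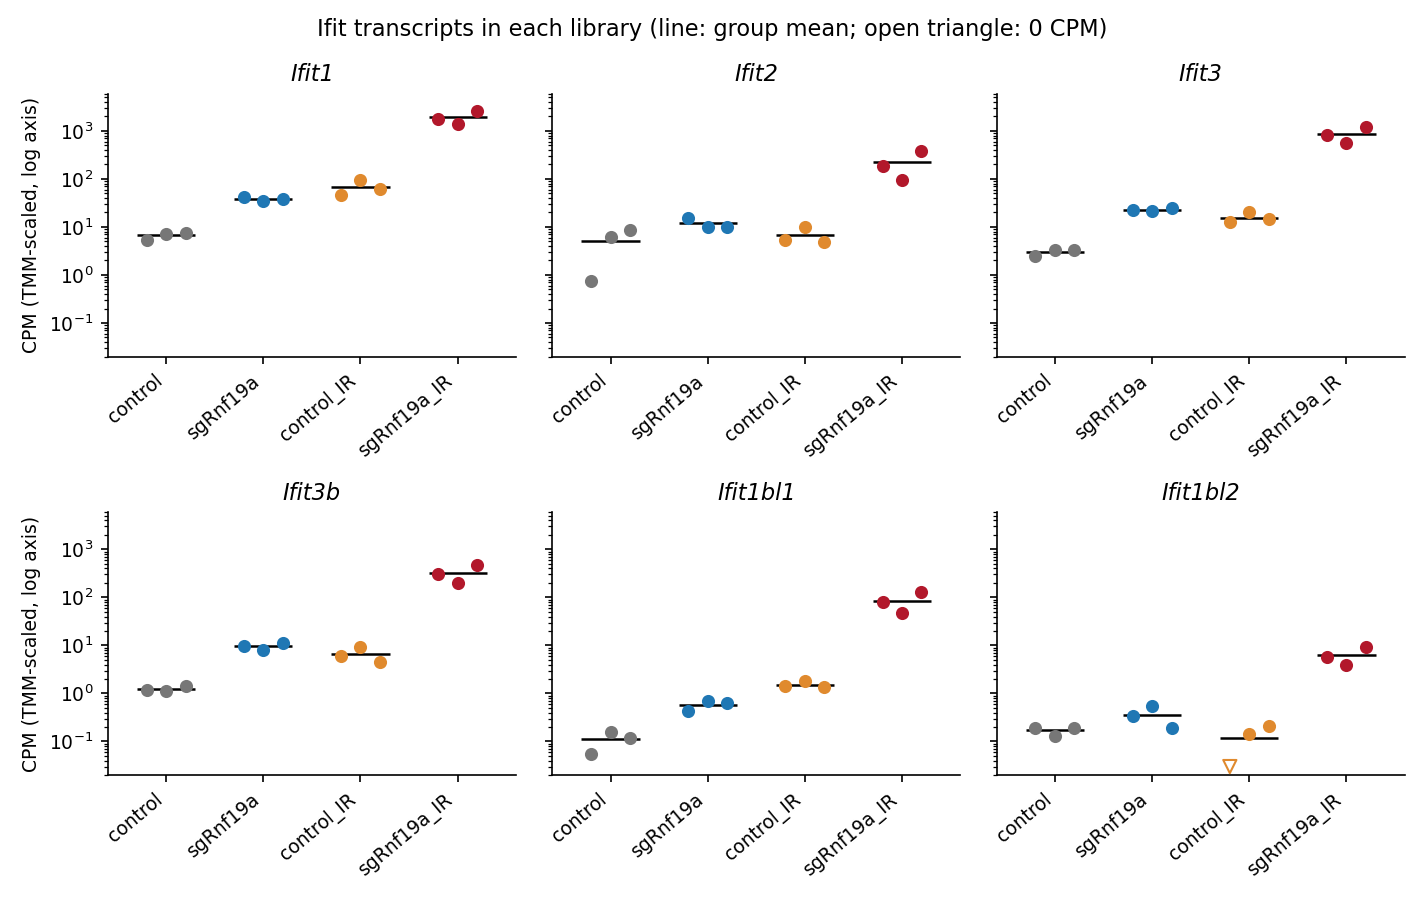
TMM-scaled CPM of each Ifit gene (log axis) in the 3 libraries of each group; points are libraries and lines are group means. Every sgRnf19a_IR library lies above every library of the other groups for all 6 genes, and the open triangle marks the control_IR library with 0 counts of Ifit1bl2.

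Ifit1, the member that binds foreign caps most directly, was at 5.29, 7.19 and 7.52 CPM in control libraries 1, 2 and 3. It was at 41.1, 35.0 and 38.8 CPM in sgRnf19a libraries 1, 2 and 3, and at 46.3, 94.5 and 62.4 CPM in control_IR libraries 1, 4 and 5. In sgRnf19a_IR libraries 1, 3 and 4 it was at 1763, 1402 and 2620 CPM. In CPM no library of one of these groups overlapped another, and the order was control, sgRnf19a, control_IR and sgRnf19a_IR. On the FPKM scale used below, sgRnf19a (14.3 to 17.3) and control_IR (13.2 to 28.9) overlapped.

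Ifit3, a partner that stabilises IFIT1 on RNA in human cells, was at 2.50, 3.34 and 3.36 CPM in control and at 22.1, 21.4 and 25.1 CPM in sgRnf19a. After IR its levels were 12.5, 20.0 and 14.7 CPM in control_IR and 810, 552 and 1231 CPM in sgRnf19a_IR. Unlike Ifit1, Ifit3 was higher in every untreated sgRnf19a library than in any control_IR library. Its near copy Ifit3b was at 1.19, 1.14 and 1.40 CPM in control and 9.79, 7.99 and 11.2 CPM in sgRnf19a, and with IR 6.14, 9.18 and 4.51 CPM in control_IR and 314, 201 and 464 CPM in sgRnf19a_IR. For Ifit3b the sgRnf19a and control_IR libraries overlapped in CPM. On the FPKM scale used below they did not (4.33 to 6.10 in sgRnf19a and 1.86 to 3.73 in control_IR).

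Ifit2, whose human counterpart binds AU-rich RNA and is tied to cell death, was at 0.76, 6.17 and 8.42 CPM in control libraries 1, 2 and 3, so library 1 stood well below the others. It was at 15.7, 9.94 and 10.2 CPM in sgRnf19a, and with IR 5.25, 9.92 and 4.94 CPM in control_IR and 182, 94.9 and 382 CPM in sgRnf19a_IR. The control and control_IR libraries overlapped.

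Ifit1bl1 and Ifit1bl2 are annotated as Ifit1b-like genes. Ifit1bl1 had 4, 12 and 10 counts in control, where about 4 counts stand for 1 read pair, 33, 53 and 45 in sgRnf19a and 40, 62 and 50 in control_IR. In sgRnf19a_IR it had 3381, 1358 and 4898 counts, or 78.5, 46.9 and 130 CPM, against 1.51 ± 0.233 CPM (SD, n = 3) in control_IR. Ifit1bl2 had 14, 10 and 16 counts in control and 25, 42 and 14 in sgRnf19a, and with IR 0, 5 and 8 in control_IR and 247, 114 and 341 in sgRnf19a_IR. The 13 counts of Ifit1bl2 in control_IR are close to the 12 that 3 read pairs give, so its folds against that group rest on very few reads. Ifit1bl1 had 26 counts over the control libraries, so its folds against control also rest on few reads. The difference between its IR responses uses the same baseline.

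Within sgRnf19a_IR, library 4 had the highest and library 3 the lowest level of all 6 members. The same order held for the long minus short transcript value, which was 0.54 in library 4, -0.27 in library 1 and -1.12 in library 3. Its part in the spread of the members was not tested.

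On the FPKM scale, which divides by transcript length and so lets members be compared with each other, the 6 genes together reached 7.07 ± 2.07 in control and 39.2 ± 3.59 in sgRnf19a, and with IR 32.3 ± 11.4 in control_IR and 1202 ± 506 in sgRnf19a_IR (SD, n = 3 each). Ifit1 came first by mean FPKM in each group: 2.82 ± 0.545 in control and 15.8 ± 1.52 in sgRnf19a, and with IR 20.5 ± 7.93 in control_IR and 588 ± 219 in sgRnf19a_IR. Ifit3 came second, at 1.97 ± 0.339, 14.4 ± 1.24, 7.22 ± 1.97 and 403 ± 178 FPKM in the same order. Their ranges over libraries overlapped in sgRnf19a_IR, although Ifit1 was above Ifit3 within each library. Ifit2 came next in control, at 1.47 ± 1.14 FPKM, with a spread that reached the levels of its neighbours. In sgRnf19a_IR, Ifit3b came next at 133 ± 60.1 FPKM, followed by Ifit2 at 45.9 ± 31.7, Ifit1bl1 at 30.8 ± 16.4 and Ifit1bl2 at 1.51 ± 0.695. The ranges of Ifit2 and Ifit1bl1 overlapped in that group. In control, Ifit1bl1 and Ifit1bl2 were last, at 0.0542 ± 0.0251 and 0.0564 ± 0.0117 FPKM, and did not differ beyond their spread.

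The makeup of the family can be given as shares of its summed FPKM. Ifit1 took 40.9 ± 4.96% in control and 40.4 ± 1.32% in sgRnf19a, and with IR 63.0 ± 3.50% in control_IR and 49.7 ± 3.12% in sgRnf19a_IR (SD, n = 3). The ratio of Ifit1 to Ifit3, taken within a library so that depth cancels, was 1.39 to 1.48 in control and 1.01 to 1.22 in sgRnf19a, and with IR 2.44 to 3.11 in control_IR and 1.40 to 1.67 in sgRnf19a_IR. The control_IR libraries thus lay above all others in this ratio. Ifit3 over Ifit3b averaged 2.85 ± 0.484, 2.74 ± 0.280, 2.85 ± 0.770 and 3.05 ± 0.0985 in the same order, within the spread between libraries. Ifit1 over Ifit1bl1 was 40.3 to 81.7 in control, where it rests on 4 to 12 counts of Ifit1bl1 per library, and 43.4 to 79.7 in sgRnf19a. With IR it was 28.2 to 45.4 in control_IR, overlapping control, and 17.1 to 25.5 in sgRnf19a_IR, without overlap with the other groups. These shares and ratios were not tested.

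**Figure D2:**
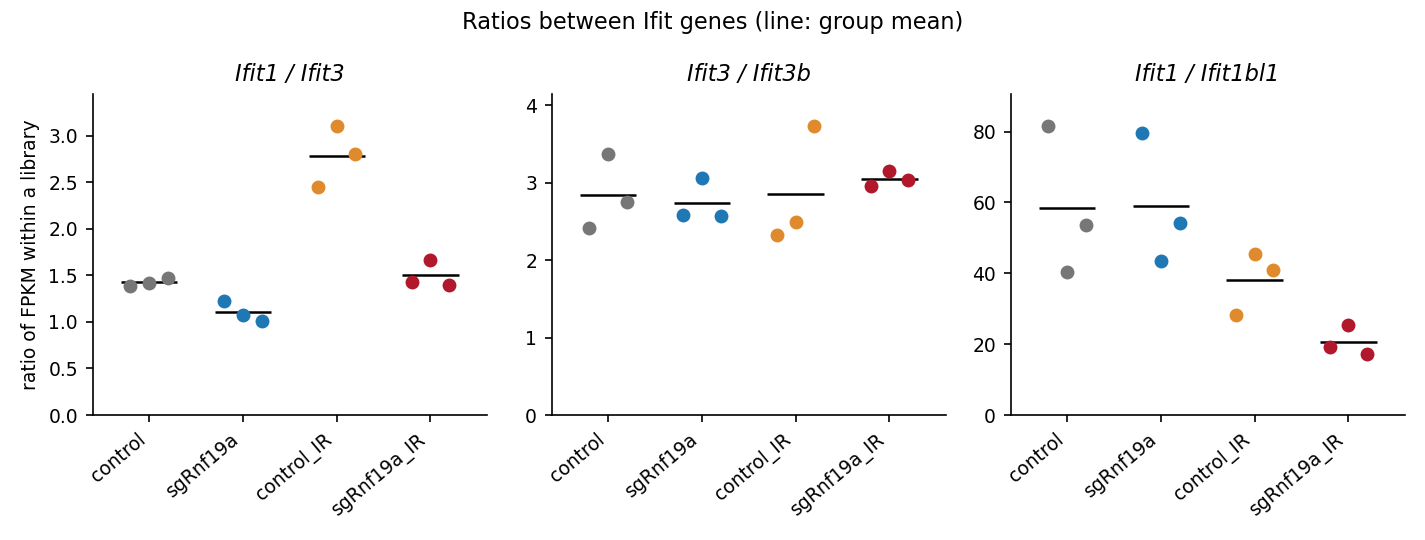
Ratios of FPKM between Ifit genes within each library, linear axes from 0; points are libraries, lines are group means. Ifit1 over Ifit3 is highest in the 3 control_IR libraries (2.44 to 3.11), while Ifit3 over Ifit3b averages between 2.74 and 3.05 in all 4 groups.

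The first comparison asks what IR changed in control cells. Ifit1, Ifit3, Ifit3b and Ifit1bl1 rose, which is 4 of 6 members called higher, where 22.2% of the 18183 genes tested were called higher. Ifit1bl1 rose 13.3-fold (log2 change 3.74 ± 0.45 SE, edgeR adjusted p = 9.84e-05), from only 26 counts in control. Ifit1 rose 10.2-fold (3.34 ± 0.30 SE, edgeR adjusted p = 3.56e-05). Ifit3 and Ifit3b rose 5.11-fold and 5.31-fold. In each of these 4 genes every control_IR library was above every control library, as in 30.0% of all genes tested. Ifit2 had a log2 fold change of 0.39 (SE 0.68, edgeR adjusted p = 0.678) and Ifit1bl2 of -0.45 (SE 0.71, edgeR adjusted p = 0.641), and neither passed. After the correction for length and GC content Ifit2 passed as higher (log2 fold change 1.64, adjusted p = 0.0486), Ifit1 stood at 4.26 and Ifit1bl1 at 4.64. On the log2(FPKM + 1) scale Ifit1bl1 did not pass (limma adjusted p = 0.125).

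In sgRnf19a cells IR raised all 6 members, where 18.0% of genes tested were called higher. Ifit1bl1 rose 146-fold (log2 change 7.19 ± 0.43 SE, edgeR adjusted p = 1.24e-06), the 21st largest rise of 18183 genes. Ifit1 rose 50.3-fold (5.65 ± 0.33 SE, edgeR adjusted p = 1.24e-06), Ifit3 37.8-fold and Ifit3b 33.8-fold. Ifit2 rose 18.4-fold (4.20 ± 0.75 SE, edgeR adjusted p = 0.00128) and Ifit1bl2 17.4-fold (4.12 ± 0.62 SE, edgeR adjusted p = 0.000477). Every sgRnf19a_IR library was above every sgRnf19a library for all 6 genes, as in 23.2% of all genes tested. After the correction for length and GC content the 6 log2 fold changes lay between 4.63 and 7.45 and all 6 passed.

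The guide in untreated cells asks what differed with it in the absence of IR. Again Ifit1, Ifit3, Ifit3b and Ifit1bl1 were higher, 4 of 6 members, in a comparison that called 3.02% of genes higher. Ifit3b was 7.76-fold higher (log2 change 2.96 ± 0.33 SE, edgeR adjusted p = 0.000160) and Ifit3 7.44-fold (2.90 ± 0.28 SE, edgeR adjusted p = 6.39e-05). Ifit1 was 5.74-fold and Ifit1bl1 5.15-fold higher. Ifit2 had a log2 fold change of 1.22 (SE 0.68, edgeR adjusted p = 0.414) although its groups did not overlap (as in 22.3% of genes with the guide higher), and Ifit1bl2 of 1.05 (SE 0.61, edgeR adjusted p = 0.439). Neither passed with DESeq2. Ifit1bl1 did not pass on the log2(FPKM + 0.1) scale (limma adjusted p = 0.0536) or with a pseudocount of 1 (0.625).

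Among IR-treated cells all 6 members were higher with the guide, where 21.0% of genes tested were called higher. The targeted gene itself was among the genes called higher here, as given above. The folds were close to each other: 28.5 for Ifit1, 32.8 for Ifit2, 49.0 for Ifit1bl2, 49.3 for Ifit3b, 55.0 for Ifit3 and 56.2 for Ifit1bl1. On the log2 scale they ran from 4.83 (SE 0.32, edgeR adjusted p = 2.31e-06) for Ifit1 to 5.81 (SE 0.40, edgeR adjusted p = 2.98e-06) for Ifit1bl1. Ifit2 had the largest SE (0.79, edgeR adjusted p = 0.000973). After the correction for length and GC content they ran from 3.95 for Ifit2 to 5.43 for Ifit3, and all 6 passed. The groups did not overlap for any member, as in 23.0% of all genes tested. Leaving out any 1 of the 12 libraries changed none of the member calls in these 4 comparisons.

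**Figure D3:**
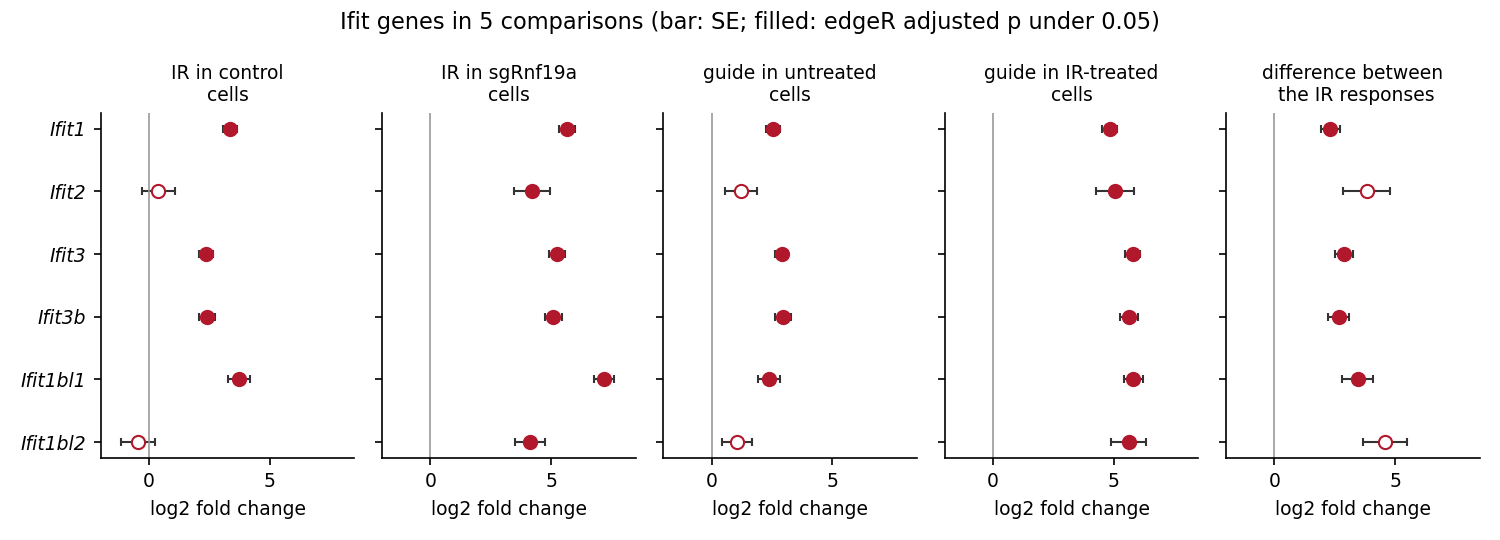
Log2 fold change of each Ifit gene in 5 comparisons, with bars for the SE from edgeR; filled points passed at an adjusted p under 0.05. Ifit2 and Ifit1bl2 are open points in 3 panels: IR in control cells, guide in untreated cells, and the difference panel.

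The difference between the IR responses was tested directly as the interaction of guide and IR. The IR response was larger in sgRnf19a cells for 4 of 6 members, where 0.544% of genes tested were called higher. The extra rise was 7.39-fold for Ifit3 (log2 2.89, SE 0.38, edgeR adjusted p = 0.0154), 6.36-fold for Ifit3b (2.67 ± 0.44 SE, edgeR adjusted p = 0.0255), 4.96-fold for Ifit1 (2.31 ± 0.39 SE, edgeR adjusted p = 0.0283) and 10.9-fold for Ifit1bl1 (3.45 ± 0.63 SE, edgeR adjusted p = 0.0334). Ifit1bl2 had the largest estimate and just missed (4.57 ± 0.92 SE, edgeR adjusted p = 0.0504), and Ifit2 did not pass (3.82 ± 0.98 SE, edgeR adjusted p = 0.0922). DESeq2 called all 6. With counts divided by 4, so that they are close to read pairs, Ifit1bl1 did not pass (edgeR adjusted p = 0.0988) and Ifit1bl2 did (0.0482).

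Calls and sizes moved with the libraries used. Over the 12 fits that each left out 1 library, the log2 difference ran from 2.55 to 3.13 for Ifit3, 2.03 to 2.63 for Ifit1, 2.33 to 2.99 for Ifit3b, 3.01 to 3.75 for Ifit1bl1, 3.16 to 4.32 for Ifit2 and 4.05 to 5.26 for Ifit1bl2, and each of the 6 members had an unadjusted p of 0.0105 or lower. Yet edgeR called no member without sgRnf19a library 2 or control_IR library 5. It called Ifit3 alone without control library 2 or 3, sgRnf19a library 1 or 3, control_IR library 1 or sgRnf19a_IR library 1, and it called 3 members without control library 1 or control_IR library 4. It called 5 members without sgRnf19a_IR library 4 and 6 without sgRnf19a_IR library 3. Over all genes those fits called between 5 and 2624 genes, against 124 (0.682%) with all libraries.

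Ifnb1, the only ligand gene given here, rose with IR in both genotypes but passed in neither guide comparison. Ifnb1, which encodes interferon beta, was at 0.24, 0.14 and 0.20 CPM in control and 0.21, 0.14 and 0.40 in sgRnf19a, and with IR 16.3, 23.2 and 23.8 CPM in control_IR and 23.9, 28.4 and 22.4 in sgRnf19a_IR. IR raised it in both genotypes (log2 fold change 6.75 in control and 6.62 in sgRnf19a cells), and among IR-treated cells the guide comparison gave 0.24 (SE 0.26, edgeR adjusted p = 0.534; -0.27 after the correction for length and GC content, also not called). The difference between its IR responses was -0.13 (SE 0.44, edgeR adjusted p = 0.906), while Ifit3 stood at 2.89. Other type I interferon genes are not described here, and the part of the ligand in the guide values was not tested.

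Stat2 and Irf9 were higher with the guide in untreated cells. Stat2 was at 22.8, 18.6 and 15.6 CPM in control and 81.7, 80.9 and 78.4 CPM in sgRnf19a (log2 change 2.08 ± 0.19 SE), Irf9 was higher by 1.72 on that scale, and both passed. Every sgRnf19a library was above every control library for both genes. Irf7, which amplifies interferon production, was higher by 2.75. With IR the guide comparison gave 2.10 for Stat2, 0.64 for Irf9 and 2.45 for Irf7, smaller values than the 4.83 to 5.81 of the members. None of the 3 passed for the difference between IR responses: Stat2 stood at 0.02, Irf9 at -1.08 and Irf7 at -0.29. Corrected for length and GC content, Stat2 turned to -0.12, not called, and Irf9 passed as lower (-1.10, edgeR adjusted p = 0.0282). Irf3, the factor that can act on Ifit promoters directly, was at 61.7 to 63.5 CPM in control_IR and 28.5 to 52.2 in sgRnf19a_IR, lower with the guide (-0.59 ± 0.18 SE, edgeR adjusted p = 0.0265), but this call was lost after the same correction (-0.26, edgeR adjusted p = 0.119).

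Over 14 tested genes of that pathway, from Ifnb1 and the receptor to feedback genes, IR called 11 higher and 2 lower in control cells. In sgRnf19a cells IR called 8 and 2. The guide called 5 higher and 0 lower in untreated cells and 8 and 2 in IR-treated cells, and 2 were called higher for the difference between IR responses. Those 2 were Irf1, an interferon-induced activator (1.10), and Usp18, which removes ISG15 and dampens the receptor (1.16). The median over the 14 was 0.29 for the guide in untreated cells and 0.77 in IR-treated cells, beside 0.03 and 0.07 over all genes tested. Over all 18183 genes tested, IR called 4028 higher and 4679 lower in control cells and 3266 and 3209 in sgRnf19a cells. For the guide these counts were 549 and 582 in untreated and 3812 and 2328 in IR-treated cells. The lists that follow have the same background.

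The 10 tested genes of RNA sensing include Ddx58 (RIG-I) and Ifih1 (MDA5), receptors for foreign RNA. The guide called 7 of them higher in untreated and 9 in IR-treated cells, with 0 and 1 lower, IR called 5 higher and 1 lower in control and 7 and 1 in sgRnf19a cells, and the difference between IR responses called 1 higher. That one was Zbp1, a sensor of unusual nucleic acid helices (1.29 ± 0.18 SE, edgeR adjusted p = 0.0154). Ifih1 was at 8.59, 15.7 and 8.64 CPM in control_IR and at 178, 86.8 and 452 CPM in sgRnf19a_IR, again with library 4 highest and library 3 lowest, as for the Ifit genes.

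Other interferon-stimulated genes give the members a scale. Of 72 such genes outside the family, IR called 48 higher and 4 lower in control cells (median log2 fold change 1.30) and 59 and 0 in sgRnf19a cells (1.79). The guide called 62 higher and 1 lower in untreated cells (2.01) and 67 and 2 in IR-treated cells (3.001), where the all-gene medians were 0.03 and 0.07. For the difference between IR responses 10 of the 72 were called higher and 0 lower (median 0.83, against 0.09 for all genes), and 18 and 3 after the correction for length and GC content. In untreated cells 14 to 26 of the 72 genes had a larger guide value than Ifit3b, Ifit3, Ifit1 and Ifit1bl1, but 55 had a larger one than Ifit2 and 56 than Ifit1bl2. In IR-treated cells the number was 0 to 3 for all 6 members. After IR in control cells it was 0 to 12 for the same 4 members, 49 for Ifit2 and 60 for Ifit1bl2, and in sgRnf19a cells 0 to 4 for all 6. Isg15, the ubiquitin-like modifier, had a guide value of 2.66 in untreated and 2.27 in IR-treated cells and a difference between IR responses of -0.40 (SE 0.27, edgeR adjusted p = 0.427).

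**Figure D4:**
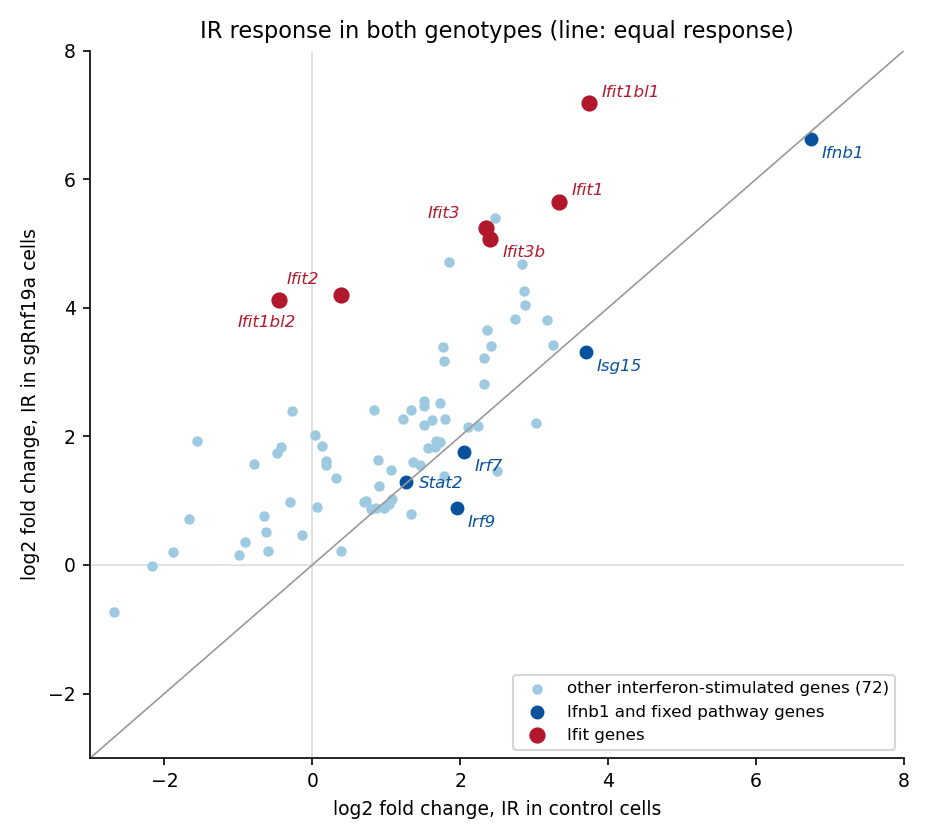
Log2 fold change after IR in control cells (horizontal) and in sgRnf19a cells (vertical) for the 6 Ifit genes, 72 other interferon-stimulated genes, and Ifnb1 with pathway genes; the diagonal marks an equal response. All 6 Ifit genes lie above the diagonal, while Ifnb1 (6.75 and 6.62) lies close to it.

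Genes of cap formation, cap binding, decapping, mRNA export and the start of translation formed a list of 13 tested genes. Cmtr1 adds the ribose methylation that marks a cap as self and is itself interferon-induced: it was higher with the guide in untreated cells (log2 change 0.71 ± 0.15 SE) and IR-treated cells (0.98 ± 0.15 SE), with both calls made. Over the list, IR called 2 higher and 7 lower in control cells, where 4028 of 18183 genes tested were called higher and 4679 lower. IR called 3 and 2 in sgRnf19a cells. The guide called 2 and 0 in untreated and 9 and 0 in IR-treated cells. Members of this list with the smallest p were Eif3a, a subunit of the initiation factor that IFIT proteins bind, after IR in control cells (-2.77), and Dcp2, the decapping enzyme, for the guide with IR (2.57). After the correction for length and GC content the IR count in control cells became 6 and 4, and the guide count in IR-treated cells 5 and 2. No gene of the list was called for the difference between IR responses.

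Across the 12 libraries, log2(CPM + 1) of the members correlated with each other at Pearson r from 0.903 (Ifit1 with Ifit1bl2) to 0.998 (Ifit3 with Ifit3b); the points share libraries and 4 groups, and the last pair shares reads. Among 12735 other genes with a mean of at least 1 CPM, the 8 with the highest mean r to the members were Mx1 (0.976), Cd274 (0.975), Tnfsf10 (0.972), Gbp2 and Gbp5 (both 0.970), Olfr56 (0.969), Ncoa7 (0.966) and Trim21 (0.966). Mx1 encodes an antiviral GTPase, Cd274 the checkpoint ligand PD-L1, Tnfsf10 the death ligand TRAIL, Gbp2 and Gbp5 guanylate-binding proteins and Trim21 an antibody receptor and ubiquitin ligase. Olfr56 overlaps 10 annotated genes, so its reads are uncertain. The mean of 1 CPM was taken over all 12 libraries, so a gene high in sgRnf19a_IR alone could enter. Olfr56 averaged 0.02, 0.66 and 0.30 CPM in control, sgRnf19a and control_IR but 12.9 in sgRnf19a_IR. The member Ifit1bl2 averaged 0.17, 0.36 and 0.12 CPM in the same groups but 6.25 in sgRnf19a_IR. Gbp5 averaged 0.36, 1.05 and 1.32 CPM in the same groups but 19.7 in sgRnf19a_IR. The member Ifit1bl1 averaged 0.11, 0.58 and 1.51 CPM there but 85.2 in sgRnf19a_IR. The r of Olfr56, Gbp5, Ifit1bl1 and Ifit1bl2 therefore rests largely on sgRnf19a_IR. Cd274 was at 2.96, 3.85 and 2.33 CPM in control and 11.0, 8.38 and 7.88 in sgRnf19a, and with IR 6.78, 8.15 and 8.08 in control_IR and 104, 70.1 and 173 in sgRnf19a_IR. Its difference between IR responses was 2.34 (SE 0.42, edgeR adjusted p = 0.0318).

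Within 250 kb of the cluster, 8 other genes had any count, of which Fas, Lipa, Slc16a12 and Pank1 were tested. Lipa, the lysosomal acid lipase, 23.2 kb from the cluster, was at 15.4 to 17.3 CPM in control and 24.7 to 28.2 in sgRnf19a, and with IR 8.77 to 11.9 in control_IR and 21.0 to 25.6 in sgRnf19a_IR. It was higher with the guide in untreated (log2 change 0.68 ± 0.15 SE, edgeR adjusted p = 0.0146) and IR-treated cells (1.16 ± 0.15 SE) and lower after IR in control cells (-0.66 ± 0.15 SE). Pank1, a pantothenate kinase, was called for the guide in IR-treated cells (0.69 ± 0.23 SE, edgeR adjusted p = 0.0376), and Fas and Slc16a12, with 447 and 244 counts over all libraries, were called in no comparison. Slc16a12 had 28, 12 and 62 counts in control, 87, 13 and 0 in sgRnf19a, 4, 0 and 0 in control_IR and 8, 12 and 18 in sgRnf19a_IR, and its difference between IR responses, 2.94 (SE 2.15, edgeR adjusted p = 0.465), was as large as that of Ifit3 but rests on few counts. Fas, a death receptor, was at 0.71 to 1.05 CPM in control, 0 to 0.32 in sgRnf19a, 0.96 to 1.34 in control_IR and 0.67 to 1.06 in sgRnf19a_IR, and passed as higher after IR in sgRnf19a cells only with length and GC content corrected for (edgeR adjusted p = 0.0373). With length and GC content corrected for, Lipa did not pass for the guide in untreated cells (edgeR adjusted p = 0.0725) or for IR in control cells (log2 change 0.04, edgeR adjusted p = 0.866), and Pank1 turned to -0.07 for the guide in IR-treated cells, not called. None of the 4 was called for the difference between IR responses.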

How the data were processed

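RNA was sequenced from B16F10 cells as 12 libraries. Per the labels' protocols, directional libraries were prepared after ribosomal depletion with 12 PCR cycles and read on an Illumina instrument as pairs of 37 bp. The submitters' processing notes name builds mm10 and GRCm39 and the tools HTSeq, Bowtie2 and DESeq2; the sources used here give neither versions nor whether counting used strand. Raw counts for each gene and FPKM values, in separate tables, were deposited by the authors. The deposited counts are whole numbers, but for transcripts over 2 kb there were 5833 values of 4 but 961 of 3 and 959 of 5, so they were treated as estimated counts with about 4 per read pair. A further 12 per-sample columns were not used. The 6 columns marked D name no treatment; they were taken as IR-treated since every other group was already filled, and are named by their column numbers, which are not those of the labels.

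Genes were kept by filterByExpr (minimum count 10, total 15) of edgeR 4.0.16 in R 4.3.3, leaving 18183. A quasi-likelihood model with TMM scaling and 4 group means was fitted to all 12 libraries (robust, 2-sided), with Benjamini-Hochberg adjustment over all genes and a call at 0.05. The SE is the log2 fold change divided by the square root of F. Alternatives were DESeq2 1.42.0, its size factors, upper-quartile factors, other filters, only the groups compared, limma 3.58.1 on log2(FPKM + 1) and log2(FPKM + 0.1), a spline correction (5 degrees of freedom) for length and GC content, counts divided by 4, summed paralogs, replicate blocks and leaving out each library. The fit was first tested on simulated counts. The length and GC correction draws on GENCODE M21, whose start and end were those of the deposited table for all 6 members. Members and gene lists were chosen with earlier results of these data known. Named genes are the members, fixed pathway genes, neighbours within 250 kb, the 8 genes most like the members and up to 2 genes per list with the smallest p; 1 fixed pathway gene is not reported here. Floors cover counting error only, as reads lack molecular identifiers. Figures were drawn with matplotlib 3.10.9.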

Additional observations from a re-analysis of the deposited data

Results flagged for a closer look

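The IR response differed between sgRnf19a and control cells, by the interaction term itself, for 4 members. The difference, sgRnf19a minus control on the log2 scale, was 2.31 for Ifit1, 2.89 for Ifit3, 2.67 for Ifit3b and 3.45 for Ifit1bl1. Ifit1 rose by 3.34 in control and 5.65 in sgRnf19a cells, Ifit3 by 2.35 and 5.24, Ifit3b by 2.41 and 5.08, and Ifit1bl1 by 3.74 and 7.19. After the correction for length and GC content the 4 differences were 1.75, 2.63, 2.26 and 2.81, in the same order, and all 4 passed. Leaving out 1 library in turn, Ifit3 was called in 10 of 12 fits, Ifit1 in 4, Ifit3b in 3 and Ifit1bl1 in 2. With counts divided by 4, Ifit1bl1 was not called (edgeR adjusted p = 0.0988).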

How the results depend on the processing

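In 4 of the 5 comparisons the number of called members stayed within 1.5 times of the main count under every alternative run: 3 to 5 for IR in control cells, 5 or 6 for IR in sgRnf19a cells, 3 or 4 for the guide in untreated cells and 5 or 6 for the guide in IR-treated cells. The FPKM filter left 5 members to test. For the difference between IR responses the count was 4 to 6 under the other settings and 0 to 6 when 1 library was left out; the cause was not tested. Ifit2 after IR in control cells turned to -0.12 without control library 1, -0.02 without control_IR library 4 and -0.039 with a replicate block on column numbers (at most 0.95 when 1 library was left out, and 1.64, called, after the length and GC correction), and Ifit1bl2, at -1.15 without control_IR library 5, turned to 0.054 without control_IR library 1 and 0.76 after the length and GC correction, none of these turned values called. Counts divided by 4 took the call from Ifit1bl1 (adjusted p = 0.0988) and gave it to Ifit1bl2 (adjusted p = 0.0482) for the difference between IR responses.

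Same-numbered untreated libraries did not deviate together (correlations -0.157, -0.0096 and 0.0329 across genes), so the numbers were not taken as pairs. With the replicate block the guide in untreated cells called 1457 genes higher and 1805 lower, against 1280 and 1545 without it in the same libraries, and 4 members in both fits. The IR-treated columns do not carry the labels' numbers, so no block on those was possible; one on the column numbers, chosen after seeing the data, called 5 members for the difference between IR responses.

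Counts over all genes moved by over 1.5 times in these settings. The guide in untreated cells called 549 higher and 582 lower, against 852 and 870 with DESeq2 and 1280 and 1545 in the groups compared alone. The guide in IR-treated cells called 3812 and 2328, against 1639 and 1158 in its own groups, 1381 and 1571 on FPKM with no filter, 2537 and 2454 with that filter, and 2075 and 2657 after the length and GC correction. The difference between IR responses called 99 and 25, against 1281 and 334 with DESeq2, 221 and 151 after the length and GC correction, 48 and 7 on log2(FPKM + 0.1) and 1972 and 795 with the block on column numbers. For IR in control cells the split of 4028 higher and 4679 lower became 2115 and 6038 on log2(FPKM + 1), with a median of -0.34, and 4285 and 3076 after the length and GC correction. In sgRnf19a cells 3266 and 3209 became 1810 and 6304, with a median of -0.40. Upper-quartile factors moved the median after IR in control cells to 0.19. Leaving out 1 library gave 642 to 2116 calls for the guide in untreated cells and 3877 to 7612 for the guide in IR-treated cells.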
